A study of Mus musculus with 12 samples.

Results

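The proteasome genes of mouse natural killer (NK) cells were followed through 3 groups of 4 samples each. NK cells are lymphocytes that kill target cells and release interferon gamma. All 12 samples came from strain B6.129S4-Ifngtm3.1Lky/J with genotype mut/mut, in which the interferon gamma gene also drives a yellow fluorescent protein (YFP), and all were primed with IL-15 (HD IL-15 in the labels). One group was left unstimulated. The other groups were stimulated for 6 hours with anti-NK1.1, an antibody against an activating receptor of NK cells, and were taken as reporter-negative (YFP-) or reporter-positive (YFP+) cells. The labels give no age and do not say how many mice made a sample or whether samples that share a label (f2, m2, m3, m4) shared a mouse, so p-values measure the spread between these samples only.

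Members were all protein-coding rows whose symbol is Psma, Psmb, Psmc, Psmd, Psme, Psmf or Psmg followed by a digit, without the immunoproteasome genes Psmb8, Psmb9 and Psmb10. The rule found 47 of 55487 features. A gene was tested where its log2 CPM (log2 of the read count scaled to the library total) was above 0 in at least 4 samples. Of the members 45 passed, and all 45 were above that level in all 12 samples. Psma8, the alpha subunit of the testis, reached at most 0.406 CPM in any sample and was not tested. Psmb11, the catalytic subunit of the thymic cortex, reached at most 0.156 CPM and was not tested. Psmc3ip matches the symbol rule but encodes a meiotic recombination factor. It is given apart by role, but is included in all counts and medians over the members.

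The 26S proteasome degrades proteins tagged with ubiquitin. Its 20S core is a barrel of alpha rings (Psma genes) that gate the entrance and beta rings (Psmb genes), of which Psmb6, Psmb7 and Psmb5 carry the caspase-like, trypsin-like and chymotrypsin-like sites. The 19S cap binds ubiquitin chains and unfolds the substrate, with a ring of ATPases (Psmc genes) and non-ATPase subunits (Psmd genes). Other activators (Psme genes) can replace the cap, Psmg products assemble the core, and interferon gamma can induce the alternative catalytic subunits Psmb8, Psmb9 and Psmb10. The transcription factor Nfe2l1 raises proteasome genes when degradation falls short of demand.

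Library totals ran from 32.1 to 54.2 M reads (M, mega), so that 3 reads corresponded to 0.0553 to 0.0933 CPM, and the lowest tested member had a log2 CPM of 2.71. All 9 NK markers were detected, with a summed level of 10483 to 16874 CPM, but most moved at a limma adjusted p under 0.05. On the log2 scale Klrb1c fell by 2.05 in YFP- and by 5.64 in YFP+ cells, Eomes by 0.63 and 1.41 and Gzma by 0.95 and 0.96. Nkg7 fell by 0.46 in YFP- cells and Ncr1 by 1.01 in YFP+ cells. Tbx21 rose by 1.28 and 1.34 and Klrk1 by 0.58 and 0.33, while Il2rb and Prf1 passed in neither. T cell markers summed to 52.6 to 112.5 CPM, B cell markers to 57.0 to 323 CPM (nearly all of it Ighm) and myeloid markers to 1.27 to 8.51 CPM. Cd4, Cd8a and Csf1r were at most at 0.18, 0.19 and 0.32 CPM in any sample, but other genes of these lists were detected and moved. Trac rose 4.56-fold in YFP- and 6.48-fold in YFP+ cells (limma adjusted p 1.88e-07 and 1.03e-08), on the log2 scale Cd3d and Cd3g fell by 0.77 and by 1.22 in YFP+ cells (adjusted p 0.0119 and 0.0059), and the myeloid gene Itgam fell by 1.12 and by 1.74 (adjusted p 0.0125 and 0.000466). Markers of other innate lymphoid cells summed to 42.2 to 49.4 CPM in unstimulated, 53.5 to 98.8 CPM in YFP- and 18.8 to 56.1 CPM in YFP+ samples. Of these, Cd200r1 rose by 1.78 in YFP- cells (limma adjusted p 0.00801) and Il7r fell in YFP+ cells (adjusted p 2.55e-05). The part of such cells in the values of the members was not tested. The share of reads on 359 ribosomal-RNA-like features differed between groups, at 27.4% to 35.3% in the unstimulated libraries, 15.9% to 30.3% in those of YFP- cells and 13.7% to 29.8% in those of YFP+ cells, and it moves with results given later. These features were all rows annotated as ribosomal RNA, including mitochondrial ribosomal RNA, and the rows Lars2, Mir6236 and Gm23935. What sets this share was not tested. In bulk RNA, fewer cells of a type and less RNA per cell cannot be told apart.

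Stimulated cells of both kinds had more RNA for nearly the whole 26S particle. In YFP- against unstimulated cells 37 of the 45 tested members rose, where 30.2% of all 12364 genes tested rose (limma, Benjamini-Hochberg adjusted p under 0.05). None was called lower, where 20.9% of all genes were, and 51.1% of all genes were called in either direction. In YFP+ against unstimulated cells 39 members rose, where 27.5% of all genes rose. The 2 that fell were Psme1 and Psmc3ip, where 33.3% of all genes fell and 60.8% were called in either direction. Counted by samples, 38 members in YFP- cells and 38 in YFP+ cells had every stimulated sample above every unstimulated one, where 30.9% and 24% of all genes did. The median log2 change of the members was 0.58 in YFP- and 0.71 in YFP+ cells, and the medians of all genes tested were 0.14 and -0.03. Both comparisons use the same 4 unstimulated samples. The members' median stayed above 0 under all 20 alternative settings, between 0.34 and 0.66 for YFP- and between 0.52 and 0.87 for YFP+ cells. Some of these settings could not move it, because they leave the differences of group means of the members unchanged. They were the replicate block, the 8 samples compared, the filters, the fit without the intensity trend and the stricter threshold. When samples were centred on their medians, the median change of all genes moved from 0.14 to 0.00 in YFP- and from -0.03 to 0.10 in YFP+ cells.

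**Figure D1:**
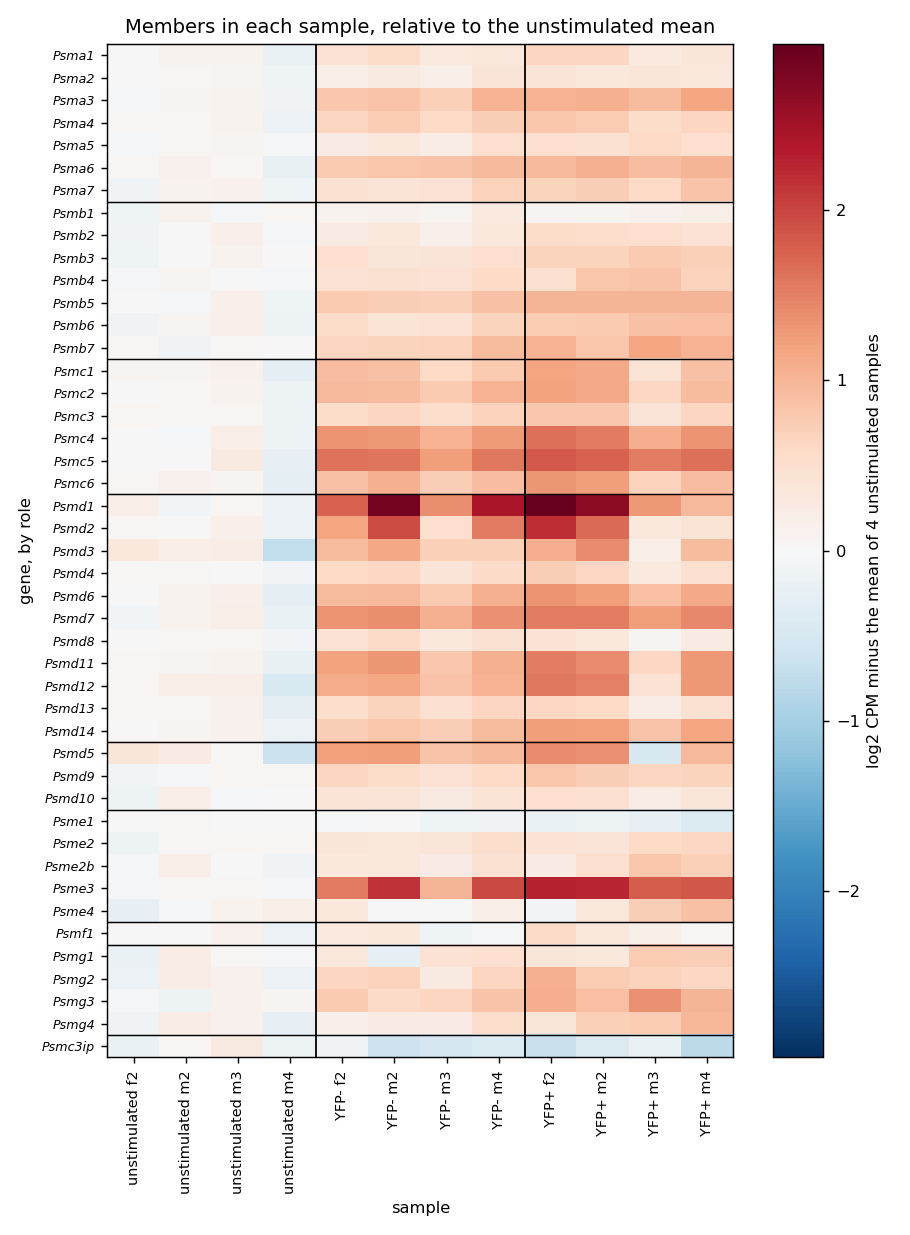
Heat map of the 45 tested members (rows, by role, separated by lines) in the 12 samples (columns), coloured by log2 CPM minus the mean of the 4 unstimulated samples. Both stimulated groups are red for nearly all 20S and 19S rows, Psme3 and Psmd1 are darkest, and YFP+ m3 is paler than the other YFP+ samples in the 19S rows.

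The 20S core rose in nearly all tested subunits, with log2 changes from 0.15 to 0.85 in YFP- and from 0.12 to 1.05 in YFP+ cells. Of its 14 tested subunits 13 rose in YFP- and 13 in YFP+ cells, where 30.2% and 27.5% of all genes tested rose. The median log2 changes were 0.49 and 0.70. The count in YFP- cells depended on the setting: it was 6 with quantile normalization (median 0.24), 8 with totals without ribosomal-RNA-like features (median 0.30), and 9 without replicate m2 or m4 or at an adjusted p under 0.01, while that in YFP+ cells ran from 12 to 14 over the alternatives. Their summed level was 3072 ± 188 CPM (SD, n = 4) in unstimulated, 4238 ± 240.0 CPM in YFP- and 4775 ± 69.7 CPM in YFP+ cells. Among the alpha ring genes the changes in YFP- cells ran from 0.26 for Psma2 to 0.85 for Psma6, and in YFP+ cells from 0.35 for Psma2 to 1.05 for Psma3. Psma3, an alpha subunit, was at 171, 188, 191 and 167 CPM in unstimulated samples f2, m2, m3 and m4, the order used for all values that follow. It was at 312, 324, 291 and 365 CPM in YFP- and at 366, 369.6, 343 and 400.5 CPM in YFP+ samples. Each stimulated sample lay well above every unstimulated one, and the stimulated groups overlapped. The limma log2 change of Psma3 was 0.85 (SE 0.10, adjusted p 1.87e-05) in YFP- and 1.05 (SE 0.10, adjusted p 1.18e-06) in YFP+ cells.

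All 3 catalytic genes of the standard core rose in both stimulated groups. Psmb5, which carries the chymotrypsin-like site, was at 123, 119, 137 and 112 CPM in unstimulated samples. It was at 209, 204, 201 and 222 CPM in YFP- and at 248.6, 246, 245 and 248.5 CPM in YFP+ samples. The 3 groups of Psmb5 values did not overlap. Its limma log2 change was 0.77 (SE 0.09, adjusted p 2.11e-05) in YFP- and 1.01 (SE 0.09, adjusted p 7.42e-07) in YFP+ cells. Psmb6, the caspase-like subunit, changed by 0.51 and 0.82 and Psmb7, the trypsin-like subunit, by 0.73 and 1.02 on the log2 scale. The exception in the core was Psmb1, a structural beta subunit, at 349, 409, 370.4 and 397 CPM in unstimulated, 407, 416, 405 and 468 CPM in YFP- and 402, 403, 414 and 430.3 CPM in YFP+ samples. Its log2 change of 0.15 in YFP- (limma adjusted p 0.18) and 0.12 in YFP+ cells (adjusted p 0.296) did not pass the test.

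Of the 19S cap, 17 of 17 tested subunits were called higher in each stimulated group, with median log2 changes of 0.93 in YFP- and 1.12 in YFP+ cells. Of all genes tested, 30.2% were called higher in YFP- and 27.5% in YFP+ cells. Over the alternatives the count of cap genes ran from 15 to 17 in YFP- and from 13 to 17 in YFP+ cells. Their summed level was 2036 ± 199 CPM (SD, n = 4) in unstimulated, 3906 ± 402 CPM in YFP- and 4215 ± 807 CPM in YFP+ cells. In the ATPase ring the largest change was that of Psmc5, from 80.2, 79.7, 97.1 and 68.6 CPM to 247, 244, 192 and 238 CPM in YFP- and 285, 272, 230.3 and 252 CPM in YFP+ samples. No stimulated sample came near the unstimulated range, and the log2 change was 1.50 (SE 0.13, limma adjusted p 1.19e-06) in YFP- and 1.68 (SE 0.13, adjusted p 1.37e-07) in YFP+ cells. Psmc3 had the smallest change in this ring, 0.60 and 0.66.

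Among the non-ATPase subunits, Psmd1, the largest scaffold of the cap, had the largest change and the widest spread. It was at 32.2, 26.9, 29.3 and 24.9 CPM in unstimulated samples, at 95.4, 202, 73.1 and 151 CPM in YFP- samples and at 222, 178, 68.8 and 55.2 CPM in YFP+ samples. The stimulated samples varied several-fold among themselves but all lay above the unstimulated range. The log2 change was 2.10 (SE 0.41, limma adjusted p 0.000874) in YFP- and 1.97 (SE 0.41, adjusted p 0.000908) in YFP+ cells. Psmd2, the other large scaffold, was at 72.1, 71.1, 78.8 and 62.4 CPM in unstimulated, 159.8, 271, 100.6 and 205 CPM in YFP- and 327, 229, 88.6 and 94.6 CPM in YFP+ samples. It changed by 1.29 (SE 0.39, limma adjusted p 0.013) and 1.16 (SE 0.39, adjusted p 0.0182). Its call in YFP- cells was lost without replicate m2 (adjusted p 0.0763) or m4 (0.0733), and in YFP+ cells without f2 (0.11) or m2 (0.0853), in the limma fit. Psmd7, which pairs with the deubiquitinase Psmd14, changed by 1.29 and 1.43, and Psmd14 itself by 0.80 and 1.12. The smallest change was that of Psmd8, 0.44 (SE 0.10) and 0.27 (SE 0.10). Its call in YFP+ cells (limma adjusted p 0.0333) was lost without f2 (0.181), m2 (0.119) or m4 (0.13), without the filter or the intensity trend, at an adjusted p under 0.01, with quantile normalization, with totals without ribosomal-RNA-like features, and with their share as a covariate.

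**Figure D2:**
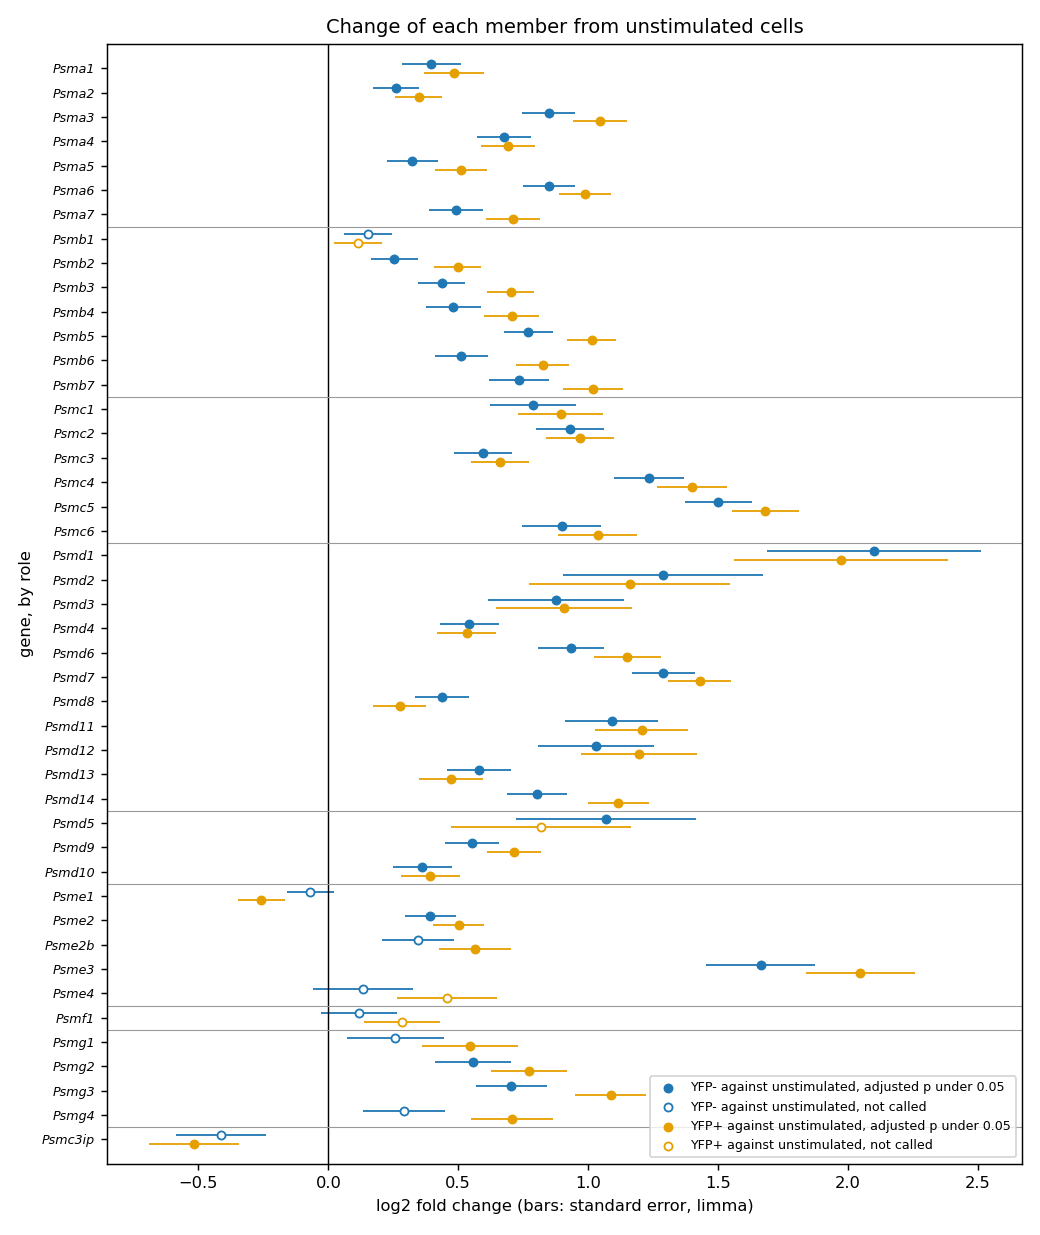
Log2 fold change from unstimulated cells for each tested member (rows, by role), with limma standard errors as bars, YFP- in blue and YFP+ in orange, filled where the adjusted p is under 0.05. The 19S cap genes reach further right than the 20S genes, Psmd1, Psmd2 and Psmd5 have the longest bars, and Psme1 and Psmc3ip lie left of 0 in both comparisons.

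The promoters of 4 cap or activator genes and of 2 catalytic genes are shown as examples. The genes were called higher in both stimulated groups, as were most members, and any link between motif and change was not tested. These promoters were chosen because they hold sequence motifs that were counted. They are from RefSeq (GRCm38.p6), 250 bases before to 50 after the start of each gene, written 5′ to 3′ along the gene. Capitals mark the ETS core CCGGAAG and the antioxidant response element core TGACNNNGC, the element read by Nfe2l1 and Nfe2l2, on either strand.
Psmd11, chr11:80428365-80428664, plus strand: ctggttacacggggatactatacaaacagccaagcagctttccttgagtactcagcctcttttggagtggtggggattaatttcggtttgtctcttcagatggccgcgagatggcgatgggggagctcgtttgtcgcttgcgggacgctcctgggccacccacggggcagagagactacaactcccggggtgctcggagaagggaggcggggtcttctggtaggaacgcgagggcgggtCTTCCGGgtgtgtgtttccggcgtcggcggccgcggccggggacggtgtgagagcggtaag
Psmd12, chr11:107479278-107479577, plus strand: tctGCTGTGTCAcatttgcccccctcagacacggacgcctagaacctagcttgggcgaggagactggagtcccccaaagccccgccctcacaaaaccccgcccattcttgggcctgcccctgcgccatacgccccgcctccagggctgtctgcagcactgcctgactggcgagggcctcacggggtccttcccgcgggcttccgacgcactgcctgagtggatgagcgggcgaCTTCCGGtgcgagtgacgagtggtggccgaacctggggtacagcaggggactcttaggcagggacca
Psmc6, chr14:45329574-45329873, plus strand: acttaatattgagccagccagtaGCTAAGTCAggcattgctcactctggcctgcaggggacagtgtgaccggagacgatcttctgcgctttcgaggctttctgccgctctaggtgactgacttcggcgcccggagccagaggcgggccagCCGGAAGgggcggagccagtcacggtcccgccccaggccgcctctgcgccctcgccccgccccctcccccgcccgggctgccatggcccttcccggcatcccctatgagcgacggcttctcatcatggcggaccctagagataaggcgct
Psme3, chr11:101315963-101316262, plus strand: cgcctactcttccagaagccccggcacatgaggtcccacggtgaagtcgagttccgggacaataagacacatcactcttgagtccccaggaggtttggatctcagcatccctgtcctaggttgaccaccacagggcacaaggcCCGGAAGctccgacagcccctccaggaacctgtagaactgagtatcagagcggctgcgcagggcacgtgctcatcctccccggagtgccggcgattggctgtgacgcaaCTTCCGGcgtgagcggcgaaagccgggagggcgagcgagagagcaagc
Psmb5, chr14:54617946-54618245, minus strand: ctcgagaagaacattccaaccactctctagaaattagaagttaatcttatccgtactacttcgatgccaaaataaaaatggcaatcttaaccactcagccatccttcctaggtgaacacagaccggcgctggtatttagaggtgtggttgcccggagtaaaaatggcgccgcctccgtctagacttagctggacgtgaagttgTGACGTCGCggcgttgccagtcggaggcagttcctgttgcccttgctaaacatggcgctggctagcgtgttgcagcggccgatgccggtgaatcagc
Psmb6, chr11:70525107-70525406, plus strand: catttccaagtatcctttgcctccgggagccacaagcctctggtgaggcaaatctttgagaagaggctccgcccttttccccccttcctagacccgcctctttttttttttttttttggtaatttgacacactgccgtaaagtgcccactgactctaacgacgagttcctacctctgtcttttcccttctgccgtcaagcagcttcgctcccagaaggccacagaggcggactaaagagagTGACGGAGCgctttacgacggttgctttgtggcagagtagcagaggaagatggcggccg
The ETS core stood in the promoters of 9 of 14 cap genes matched to the RefSeq table and of 1 of 12 core genes. The 12 include Psmb11, which was not tested, and lack Psmb1, Psmb2 and Psmb7. The 14 lack Psmc3, Psmd3 and Psmd7. Of all 39 matched members 15 (38.5%), Psmc3ip among them, held it, against 22.3% of the tested genes and 9.93% of all genes in that table. The median number of CpG in the window was 21 in cap, 19.5 in core and 22 in all tested genes. The antioxidant response element core stood in 6 of 39 members (15.4%: Psmb5, Psmb6, Psmc6, Psmd12, Psmd9 and Psme4), against 17.1% of tested and 14.0% of all genes. The CCAAT box stood in 14 of 39 members (35.9%), against 43.2% of tested genes. By part it stood in 7 of 12 core genes (58.3%), Psmb11 among them, and in 4 of 14 cap genes (28.6%). The E-box CACGTG stood in 3 of 39 members (7.69%), against 12.1% of tested genes. A match is a description of the letters and not a binding site, and no match says only that the letters are not in this window.

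Cap genes changed by more than core genes, and this difference moved with the ribosomal-RNA-like share of the libraries. The median cap gene minus the median core gene, on the log2 CPM scale, was -0.88 ± 0.06 (SD, n = 4) in unstimulated, -0.53 ± 0.09 in YFP- and -0.54 ± 0.18 in YFP+ cells. Within each group the library with the highest ribosomal-RNA-like share had the lowest value: unstimulated m4 with 35.3% at -0.97, YFP- m3 with 30.3% at -0.65 and YFP+ m3 with 29.8% at -0.78. YFP+ m3 lay close to unstimulated m3, which had 29.2% and -0.81. In the same 3 libraries the cap genes were lowest of their group: 17 of 17 in unstimulated m4, 15 of 17 in YFP- m3 and 16 of 17 in YFP+ m3. The same libraries were lowest for 39.8%, 55.0% and 40.8% of all genes tested.

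**Figure D3:**
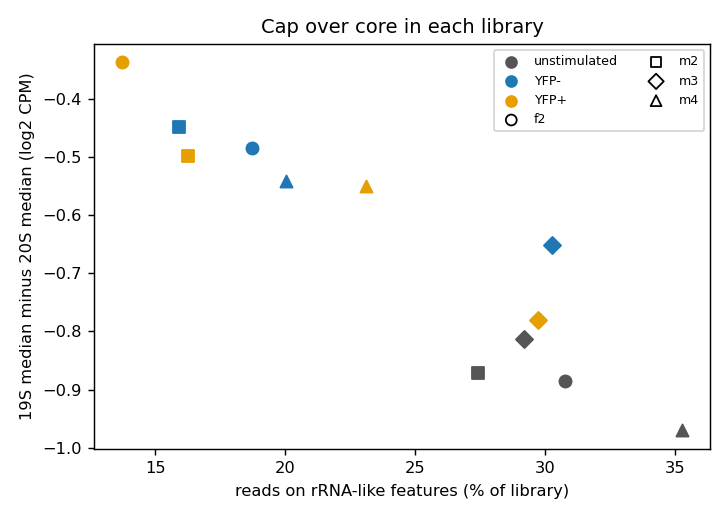
Each point is 1 library: the x axis gives the percent of its reads on ribosomal-RNA-like features, the y axis the median log2 CPM of 17 cap genes minus that of 14 core genes, with colour for group and shape for replicate label. Unstimulated libraries lie low and to the right, and within YFP- and YFP+ cells the value is lower where the share is higher.

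With the ribosomal-RNA-like share as a covariate in the limma fit, the medians of cap and core came close together. The cap median was then 0.58 in YFP- and 0.70 in YFP+ cells, and the core median 0.48 and 0.68. In that fit 15 of 17 cap genes still rose in YFP- and 13 of 17 in YFP+ cells, and Psmd2 (0.35, adjusted p 0.221, and 0.17, adjusted p 0.537) and Psmd3 were among those lost in both. The shares of all genes called in that fit are not given. Psmd1 rose by 1.20 (adjusted p 0.00543) and 1.02 (adjusted p 0.011) and Psmc5 by 1.27 (adjusted p 1.06e-06) and 1.44 (adjusted p 1.21e-07). Because the share also differs between groups, the part of the larger cap change that belongs to the libraries and the part that belongs to stimulation cannot be told apart.

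The cap genes are also the longer genes, with coding lengths of 930 to 2859 bases against 603 to 831 bases for the core. Over the 31 tested core and cap genes, Spearman's rho between coding length and the log2 change was 0.75 in YFP- and 0.55 in YFP+ cells, given as a description of genes that share the same libraries. Over all 10441 tested genes with a coding length it was -0.08 and -0.10. In YFP+ m3 against the mean of the other YFP+ samples, rho was -0.88 over the 31 subunits and 0.04 over all genes. The median cap gene was lower there by -0.44 and the median core gene differed by 0.01 on the log2 scale. A correction for the GC content and length of each gene's longest transcript left cap medians of 0.65 and 1.07 and core medians of 0.34 and 0.81. It followed the trend over all genes, so it does not test the relation with coding length within the 31 subunits.

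The subunits of the particle also lay closer to each other in level in YFP- than in unstimulated cells. The part of the ribosomal-RNA-like share in this was not tested. Per kilobase of coding sequence, the unstimulated level of core genes ran from 40.4 CPM for Psmb7 to 555 CPM for Psma7, and that of cap genes from 9.91 CPM for Psmd1 to 169 CPM for Psmd8. In YFP- cells the cap ran from 45.6 CPM per kilobase for Psmd1 to 298 for Psmd7, and in YFP+ cells from 45.8 for Psmd1 to 328 for Psmc4. Psmd1 thus stayed the lowest cap gene per coding length in every group. The SD of the log2 level per kilobase of exon over the 31 subunits was 1.28 ± 0.05 (SD over 4 samples) in unstimulated, 1.06 ± 0.07 in YFP- and 1.14 ± 0.14 in YFP+ cells, but the YFP+ range of 1.002 to 1.27 overlapped the unstimulated range of 1.21 to 1.33.

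The activators went separate ways. Psme3, which encodes the nuclear activator REG gamma, was at 39.7, 41.2, 41.3 and 39.5 CPM in unstimulated, at 119, 178, 81.1 and 157 CPM in YFP- and at 199, 194, 139.8 and 145 CPM in YFP+ samples. Every stimulated sample lay far above the narrow unstimulated range, and YFP- m3 was the lowest of them. The log2 change was 1.66 (SE 0.21, limma adjusted p 2.68e-05) in YFP- and 2.05 (SE 0.21, adjusted p 1.81e-06) in YFP+ cells, the latter the largest of any member in that comparison.

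Psme1 and Psme2 encode the interferon-inducible REG alpha and REG beta, which form 1 ring together and are neighbours on chromosome 14 (GRCm38, chr14:55578123-55581529 and chr14:55587441-55591113). Psme1 was at 403, 413, 397 and 396 CPM in unstimulated, 393, 399.7, 368 and 375 CPM in YFP- and 352, 362, 338 and 298 CPM in YFP+ samples, so that all YFP+ samples lay below all others. It fell by 0.26 on the log2 scale in YFP+ cells (SE 0.09, limma adjusted p 0.024), and its change of -0.07 in YFP- cells did not pass (adjusted p 0.547). The YFP+ call was lost with trimmed-mean scaling (-0.13, limma adjusted p 0.246), with centring (-0.13, adjusted p 0.233) and on leaving out any 1 replicate label, and the change was 0.03 after the GC and length correction. Psme2 rose by 0.39 (SE 0.10, limma adjusted p 0.00471) and 0.50 (SE 0.10, adjusted p 0.000574). Psme2b is a near-identical copy of Psme2, and reads may have been split between them. It changed by 0.34 in YFP- cells (limma adjusted p 0.0522), which did not pass, and rose by 0.56 in YFP+ cells (adjusted p 0.003).

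Psme4, a large single-chain activator, changed by 0.13 (limma adjusted p 0.585) and 0.46 (adjusted p 0.0531), and neither passed. Its YFP+ samples were at 15.4, 20.6, 27.2 and 29.7 CPM against 13.8, 16.0, 17.6 and 18.4 CPM in unstimulated cells, and these ranges overlapped. Psmf1, a regulator first described as an inhibitor of the core, changed by 0.12 (limma adjusted p 0.522) and 0.28 (adjusted p 0.107), which did not pass. Of the core chaperones Psmg1 to Psmg4, 2 of 4 rose in YFP- (Psmg2 and Psmg3) and 4 of 4 in YFP+ cells. Psmg3 changed most, by 0.70 and 1.09, and Psmg1 least, by 0.26 and 0.54. Of the cap chaperones Psmd5, Psmd9 and Psmd10, 3 of 3 rose in YFP- cells, from 0.36 for Psmd10 to 1.07 for Psmd5. Psmd10 was also the smallest in YFP+ cells, at 0.39. Beside both chaperone counts, 30.2% of all genes tested rose in YFP- and 27.5% in YFP+ cells. In YFP+ cells Psmd9 and Psmd10 rose and Psmd5 did not pass (0.82, limma adjusted p 0.0554), with YFP+ m3 at 43.7 CPM beside 160.4, 155 and 118 CPM in the other YFP+ samples. Without YFP+ m3, Psmd5 was called higher. Psmc3ip changed by -0.41 in YFP- cells (limma adjusted p 0.0609) and fell by 0.52 in YFP+ cells (adjusted p 0.0193).

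Few members passed the test between YFP+ and YFP- cells at the scale of the deposited values. Of the 45 members 2 were higher in YFP+ cells (Psmb3 and Psmb6), where 3.28% of all genes were, and 0 were lower, where 18.5% of all genes were (limma, adjusted p under 0.05). At an unadjusted p under 0.05, 8 members passed in either direction, where 21.8% of all genes passed even the adjusted threshold. Counted by samples, 6 members had every YFP+ sample above every YFP- sample, where 4.31% of all genes did. Only Psme1 had every YFP+ sample below every YFP- sample, where 17.8% of all genes did. The members' median difference was 0.16 beside -0.19 over all genes tested. Of the 45 members 36 lay above 0, where 33.1% of all genes did. The largest difference of any member was that of Psmg4 (0.42), which was not called. Psme3 (0.38) and Psmd14 (0.31) were not called either. Psmg4 and Psmd14 were called higher with centring, quantile normalization, trimmed-mean scaling, the GC and length correction, or the ribosomal-RNA-like share as a covariate. Psmb6 was at 393, 360.0, 366 and 430.4 CPM in YFP- and 459, 464, 497 and 503 CPM in YFP+ samples, which did not overlap, a difference of 0.31 (SE 0.10, limma adjusted p 0.0429). Psmb3, a structural beta subunit, was at 379.8, 346, 348 and 379.5 CPM in YFP- and 427, 423, 457 and 439 CPM in YFP+ samples, which did not overlap either, a difference of 0.27 (SE 0.09, limma adjusted p 0.0486). Both calls were lost on leaving out any 1 replicate label, with adjusted p of 0.0921 to 0.206 for Psmb3 and 0.0821 to 0.186 for Psmb6.

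The count of members called between the stimulated groups turned on the scaling of the libraries. It was 2 with the deposited values, 6 with quantile normalization, 16 with trimmed-mean scaling, 29 after the GC and length correction and 30 when each sample was centred on its median, all higher in YFP+ cells. It was 0 with the replicate block, with only the 8 samples compared, without the filter and without the intensity trend. The median difference of all genes moved from -0.19 to -0.03 with trimmed-mean scaling and to 0.07 with centring. The shares of all genes called under these settings are not given. The counts alone therefore do not set the members apart from other genes. The core median difference of 0.21 and the cap median of 0.11 became 0.36 and 0.26 with trimmed-mean scaling.

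While the standard core rose, the immunoproteasome genes fell. Psmb9, the counterpart of Psmb6, was at 116, 114, 114 and 136 CPM in unstimulated, 43.2, 42.8, 45.9 and 35.2 CPM in YFP- and 18.7, 17.1, 19.5 and 13.8 CPM in YFP+ samples. The 3 groups did not overlap. Psmb9 fell by 1.52 (SE 0.14, limma adjusted p 1.62e-06) in YFP- and by 2.80 (SE 0.14, adjusted p 2.9e-09) in YFP+ cells, and was lower in YFP+ than in YFP- cells by 1.28 on the log2 scale, written -1.28 (adjusted p 4.14e-05). Psmb8, the counterpart of Psmb5, fell by 0.94 and by 1.37, and Psmb10, the counterpart of Psmb7, fell by 0.53 and by 1.52. Both were also lower in YFP+ than in YFP- cells (-0.43, limma adjusted p 0.00695, and -0.995, adjusted p 5.9e-05).

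The ratio of each standard gene to its counterpart within a sample does not depend on the scaling between libraries. Per coding length, the log2 ratio of Psmb6 to Psmb9 was 1.06 ± 0.25 (SD, n = 4) in unstimulated, 3.10 ± 0.28 in YFP- and 4.69 ± 0.26 in YFP+ cells. That of Psmb7 to Psmb10 was -2.96 ± 0.07, -1.70 ± 0.28 and -0.42 ± 0.21. That of Psmb5 to Psmb8 was -1.68 ± 0.14, 0.04 ± 0.13 and 0.71 ± 0.14. For all 3 pairs the groups did not overlap and were ordered from unstimulated through YFP- to YFP+ cells. Psmb5 RNA was thus below Psmb8 per coding length in every unstimulated sample and above it in every YFP+ sample, whereas Psmb7 stayed below Psmb10 in all 12 samples. Summed over the 3 genes, immunoproteasome RNA was 786 ± 20.6 CPM in unstimulated, 434 ± 29.5 CPM in YFP- and 265 ± 22.1 CPM in YFP+ cells. The peptide transporter genes Tap1 and Tap2, neighbours of Psmb8 and Psmb9 in function and position, were lower in YFP+ than in YFP- cells (-1.49, limma adjusted p 0.0139, and -1.28, adjusted p 0.0382). Both split by library: YFP+ samples were at 54.2, 47.01, 19.3 and 12.0 CPM for Tap1 and at 56.3, 40.9, 12.3 and 14.9 CPM for Tap2, whose groups overlapped. Against unstimulated cells, neither passed in YFP- cells (0.29 and 0.44), and in YFP+ cells Tap1 fell by 1.20 (limma adjusted p 0.0151) and Tap2 did not pass (-0.84, adjusted p 0.0886).

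**Figure D4:**
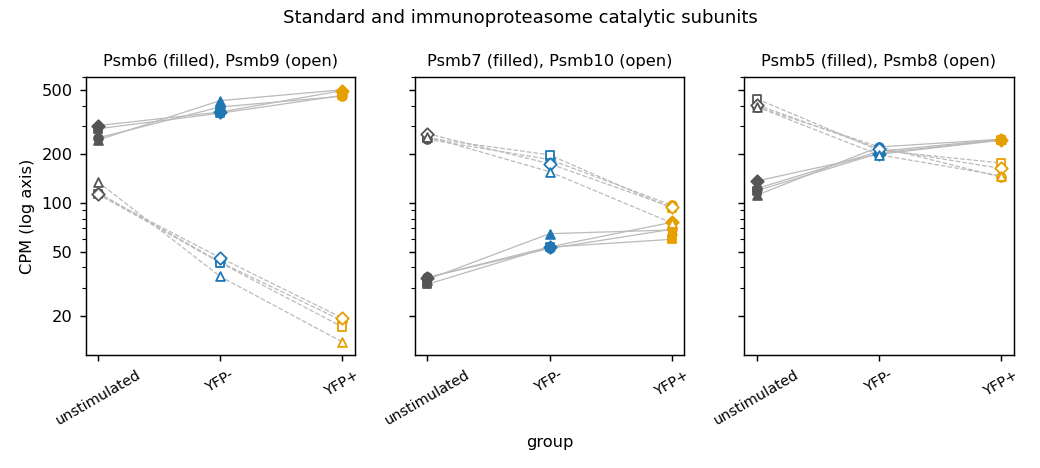
CPM on a log axis of each standard catalytic gene (filled, solid lines) and its immunoproteasome counterpart (open, dashed lines) in the 3 groups, 1 point per sample, shaped and joined by replicate label. Filled points rise and open points fall from left to right in all 3 panels, and the Psmb5 and Psmb8 points meet in YFP- cells.

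Genes around the proteasome were taken from lists of 46, of which 45 were in the table and 44 were tested. In YFP- against unstimulated cells 18 rose and 7 fell, and in YFP+ against unstimulated cells 18 rose and 9 fell, to be read beside the shares of all genes given above (30.2% higher and 20.9% lower, and 27.5% higher and 33.3% lower). Between the stimulated groups 3 were higher in YFP+ cells (Nfe2l1, Txnl1 and Nploc4) and 6 were lower (Psmb8, Psmb9, Psmb10, Tap1, Tap2 and Ubxn1), beside 3.28% and 18.5% of all genes. The counts of the shorter lists that follow stand beside the same shares of all genes. Among the factors of the proteasome response, Nfe2l1 was at 20.4, 22.7, 24.3 and 21.7 CPM in unstimulated, 63.3, 61.4, 49.4 and 61.9 CPM in YFP- and 71.4, 81.1, 89.4 and 87.1 CPM in YFP+ samples. The 3 groups did not overlap. Nfe2l1 rose by 1.40 (SE 0.12, limma adjusted p 1.4e-06) and 1.88 (SE 0.12, adjusted p 3.4e-08), and was higher in YFP+ than in YFP- cells by 0.48 (adjusted p 0.0135). Mafk, a small Maf partner of the Nfe2 factors, rose by 2.34 (limma adjusted p 6.66e-05) and 2.72 (adjusted p 9.06e-06), while Maff, another partner, fell by 0.91 and by 1.37. Nfe2l2 rose by 1.40 and 0.93 and the repressor Bach1 by 0.90 and 0.87. Ddi2, the protease that activates Nfe2l1, was at changes of 0.25 and -0.09 that did not pass, and Ngly1, which removes its sugars, fell by 0.85 in YFP+ cells (limma adjusted p 0.0284).

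Of 12 tested cofactors 6 rose in each stimulated group. They were the cap ubiquitin receptor Adrm1 (0.99 and 1.16), the core assembly factor Pomp (0.48 and 0.65), the cap deubiquitinase Usp14 (1.33 and 0.82), the thioredoxin-like cap partner Txnl1 (0.54 and 0.88), and Zfand2a (1.02 and 1.05) and Zfand5 (1.19 and 1.35), zinc-finger proteins that act with the proteasome. Usp14 in YFP+ cells (limma adjusted p 0.0455) was at 89.7, 91.5, 31.7 and 36.8 CPM, and its m3 and m4 samples lay within the unstimulated range of 20.53 to 37.3 CPM. Sem1, a small cap subunit whose symbol lies outside the rule, changed by -0.16 in both and did not pass. Ube3c, a ubiquitin ligase at the cap, fell by 0.71 in YFP- cells (limma adjusted p 0.00949). Uchl5, the partner of Adrm1, changed by 0.04 and 0.22 and did not pass. Of 7 genes of the p97 unfoldase complex, which extracts ubiquitin-tagged proteins for the proteasome, 5 rose in each stimulated group. Vcp, the unfoldase itself, rose by 1.21 (limma adjusted p 0.00392) and 1.32 (adjusted p 0.00154), and Faf1 fell by 0.53 and by 0.37. Ubxn1, another p97 partner, fell by 0.48 in YFP+ cells (limma adjusted p 0.00133). Of the ubiquitin genes, 2 of 6 were called higher in YFP- and 1 of 6 in YFP+ cells, and Ubb was called in neither. The largest of these rises were those of the ubiquitin-activating enzyme Uba6 in YFP- (0.44) and of Rps27a in YFP+ cells (0.33). Of 6 shuttle genes, which carry tagged proteins to the cap, 1 rose and 1 fell in YFP- cells and 2 rose and 1 fell in YFP+ cells, with Ubqln4 the largest rise in YFP- (0.61) and Ubqln1 in YFP+ cells (0.65). The one that fell in both was Bag6 (-0.60 and -0.68).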

How the data were processed

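RNA was measured by sequencing in 12 samples of mouse NK cells. The deposited values are moderated log2 CPM (log2 of read counts scaled to the library total, with a small prior), per the file headers, and were tested as log values, other than raw counts. Reads were processed with bcl2fastq, STAR 2.7.9a, Subread and featureCounts 2.0.3 on GRCm38, per the submitters' processing notes; strand and multi-mapping settings are not given in the sources used here, so antisense and near-identical genes cannot be separated. Libraries were made from 10 ng of RNA with the SMARTer Ultra Low kit, per the labels' protocols. The table held 55774 lines, of which 287 repeats were dropped, leaving 55487 features. All values (100%, within 0.01 reads) came out as whole reads, which gave CPM and library totals; intervals and floors cover counting error only.

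The 12364 genes that passed a log2 CPM of 0 in 4 or more samples were fitted in limma 3.58.1 (R 4.3.3) over all 12 samples with 1 coefficient per group and an intensity trend, and called at a Benjamini-Hochberg adjusted p under 0.05 over all genes. With 4 against 4 samples an exact permutation test cannot go below 0.0286, and none is reported. The fit was tested on simulated data. Gene positions are from GENCODE M21. Alternatives were the replicate block, the 8 samples compared, filters, a pseudocount of 1 CPM, scalings, sample weights, a stricter threshold, coding length and leaving out each replicate. Added after seeing the data were a GC and length correction, alone and with the block, the fit without YFP+ m3, and the ribosomal-RNA-like share as a covariate. Every member is accounted for. Named are those with the largest and smallest change per role against unstimulated cells, the activators, Psmf1 and the catalytic genes. Between the stimulated groups only some of the largest and smallest per role are named. The largest called rise and fall of each related list are also named, and other genes named were chosen after their values were seen. The members and lists were chosen with earlier results of these data known. Samples sharing a label correlated in their deviations by a mean r of 0.03, 0.14 and 0.24 in the 3 comparisons, not all pairs above 0.1, so they were not treated as paired. Values of some single genes of the marker and related lists are not reported here.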

Additional observations from a re-analysis of the deposited data

Results flagged for a closer look

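Of 144 sets of 4 values (a gene in a group), 13 had 1 sample far from the other samples, with a gap to the nearest of them that took up more of the group's range than Dixon's critical value allows. The share of the range is given in parentheses. Chance flags about 1 in 20 sets, here 7.2. Unstimulated m4, the library with the highest ribosomal-RNA-like share, was the lowest sample for Psmc1 (0.921), Psmc3 (0.868), Psmc6 (0.849) and Psmd3 (0.889), all cap genes, and the highest for Psmb9 (0.881). At log2 CPM, Psmd3 was at 5.12 there beside 6.05 to 6.17 in the other unstimulated samples. YFP- m3, the YFP- library with the highest such share, was lowest for Psmc5 (0.857), Psmd7 (0.864) and the core chaperone Psmg2 (0.893). YFP+ m3 was lowest for Psmd14 (0.858). YFP- m4 was highest for Psmb4 (0.886), Psmb7 (0.895) and Psme2 (0.899), and unstimulated f2 was lowest for Psme2 (0.837). The part of the ribosomal-RNA-like share in these values was not tested beyond the fit with that share as a covariate.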

How the results depend on the processing

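Counts of members called higher against unstimulated cells stayed within 1.5 times under all 20 alternatives: 27 to 38 in YFP- and 34 to 43 in YFP+ cells. Median changes moved by more than the replicate spread as follows. In YFP- cells the median was 0.44 with centring on the median, 0.34 with quantile normalization, 0.40 with totals without ribosomal-RNA-like features, 0.45 with the GC and length correction and 0.45 with the ribosomal-RNA-like share as a covariate. In YFP+ cells it was 0.84 with centring, 0.84 with trimmed-mean scaling, 0.52 with totals without ribosomal-RNA-like features and 0.87 with the GC and length correction. Between the stimulated groups it was 0.42 with centring, 0.31 with trimmed-mean scaling and 0.38 with the GC and length correction. The count of 2 members higher in YFP+ than in YFP- cells was 0 with the replicate block, with the 8 samples only, without the filter, without the trend and at adjusted p under 0.01. It was 1 with a pseudocount of 1 CPM, sample weights, totals without ribosomal-RNA-like features or without YFP+ m3, 6 with quantile normalization, 9 with the covariate, 16 with trimmed-mean scaling, 29 with the GC and length correction, 30 with that correction in a replicate block and 30 with centring. Leaving out 1 replicate label gave 0 to 1. The shares of all genes called under the alternatives are not given beside these counts. The replicate block gave 37 calls in YFP- and 43 in YFP+ cells against 37 and 41, and added Psmd5 and Psme4; 3 of 4 samples correlated best with their own label between the stimulated groups, a hint from the data. The spread of unstimulated levels was 1.33 per coding length.

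Over all 45 tested members signs turned 75 times, 54 of them between the stimulated groups, none called in both settings; the cause was not tested. The 45 among members called or named by rule (2160 values) follow. In YFP- cells these were, with centring, Psme4 (-0.0048) and Psmf1 (-0.021); with quantile normalization Psma2 (-0.015), Psmb1 (-0.020), Psme4 (-0.0070) and Psmf1 (-0.11); with totals without ribosomal-RNA-like features Psmb1 (-0.028), Psme4 (-0.048) and Psmf1 (-0.064); over fits that left out 1 library or label Psme4 (-0.0048 to 0.21); with the GC and length correction, with and without the block, Psma2 (-0.19), Psmb1 (-0.13) and Psmf1 (-0.13); and with the covariate Psmf1 (-0.14). In YFP+ cells they were Psmb1 with quantile normalization (-0.049) and with totals without ribosomal-RNA-like features (-0.075), and Psme1 with the GC and length correction (0.028). Between the stimulated groups they were, with centring, Psmb1 (0.22), Psmd1 (0.14), Psmd8 (0.098), Psmd5 (0.0098) and Psme1 (0.073); with trimmed-mean scaling Psmb1 (0.11) and Psmd1 (0.026); with sample weights Psmd1 (0.27) and Psmd5 (0.079); with the GC and length correction Psmb1 (0.22), Psmd1 (0.13), Psmd8 (0.15) and Psme1 (0.14); and over fits that left out 1 library or label Psma4 (-0.041 to 0.065), Psmc2 (-0.027 to 0.16), Psmd1 (-0.57 to 0.32) and Psmd5 (-0.40 to 0.18).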
